A study of Mus musculus with 4 samples.

Results

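Enzymes that make asparagine, glutamine, proline, cysteine, aspartate and alanine were followed in the heart ventricle of mice with a muscle-directed deletion of Hnrnpu, the gene of the RNA-binding protein hnRNP U. The 9 genes, Asns, Got1, Got2, Glul, Pycr1, Aldh18a1, Gpt2, Cth and Cbs, were taken by symbol from a table of 36814 rows, each symbol having 1 row. The list was selected on the RPKM values of the same mutant and control groups that are described here, so its changes are given as a description and carry no test of the list. RPKM is a read count scaled by transcript length and by the number of mapped reads, so levels can be compared between genes.

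RNA was sequenced from ventricles, with atria removed, of 4 mice at postnatal day 14. The 2 control mice are labelled wild type, and the labels do not say whether they carried the floxed allele or the Cre. The 2 mutant mice carried the conditional Hnrnpu allele together with the Ckmm-Cre transgene, whose muscle creatine kinase promoter is active in heart and skeletal muscle. All 4 were of a mixed C57BL/6 and 129 S4 background, and each group held 1 male and 1 female. This promoter is known for activity in striated muscle, and neither recombination nor Hnrnpu by cell type was measured here. The authors gave 1 RPKM value per group and 1 test per row, so no level below has a spread between animals, and no order of levels could be set against one. Nothing in the labels says how the animals of a group were related.

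The amino acids made by these enzymes are non-essential: cells build them from glutamate, aspartate, pyruvate, serine and methionine. Aspartate aminotransferases supply aspartate, asparagine synthetase moves an amide group from glutamine to aspartate, and glutamine synthetase adds ammonia to glutamate. Proline is built from glutamate through pyrroline-5-carboxylate, and cysteine from homocysteine and serine through cystathionine. Asparagine synthetase is a well known target of the transcription factor ATF4, which is translated when amino acids run short or mitochondria are under stress and which binds a composite element built around the letters TGATGNAA.

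Promoters are shown because 5 of these genes were called higher (adjusted p below 0.05) and because this element is short enough to be read by eye. Whether those 5 genes share a regulator was not tested. RefSeq promoter windows (build GRCm38.p6, 250 bases before to 50 bases after the annotated start) were at hand for 8 of the 9 genes, all but Cth. Among these, 3 held TGATGNAA on either strand: Asns, Pycr1 and Got1. Of these 3, Asns and Pycr1 were called higher and Got1 was not. The last 120 bases before the start of these 3 genes are printed 5′ to 3′ on the strand of the gene, with the match in capitals. They lie at chr6:7693210-7693329 for Asns, chr11:120643749-120643868 for Pycr1 and chr19:43524606-43524725 for Got1, all on the minus strand.
Asns: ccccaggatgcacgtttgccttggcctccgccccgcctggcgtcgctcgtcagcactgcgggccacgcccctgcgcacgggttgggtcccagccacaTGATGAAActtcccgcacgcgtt
Pycr1: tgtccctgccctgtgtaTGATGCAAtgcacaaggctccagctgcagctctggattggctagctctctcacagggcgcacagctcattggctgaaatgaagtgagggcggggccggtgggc
Got1: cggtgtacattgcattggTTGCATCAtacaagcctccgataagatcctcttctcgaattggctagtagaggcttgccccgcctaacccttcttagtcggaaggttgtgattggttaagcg

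In Asns the match reads TGATGAAA and spans bases -23 to -16, counted with the annotated start as 0. A GTTACA, known as the second element of the amino acid responsive unit of this gene and searched after the data were seen, begins at base -3 and runs to base 2, over the start itself. In Pycr1 the match reads TGATGCAA from base -103 to -96. In Got1 the same letters stand on the other strand, printed as TTGCATCA, from base -102 to -95. Of 32851 windows of all genes, 3.97% held TGATGNAA. Before the start alone, it was in 3.45% of all windows, in 4.16% of 385 windows of rows called higher and in 2.65% of 264 windows of rows called lower. Glul, Aldh18a1, Gpt2, Got2 and Cbs had no match in their windows, which says only that these letters are not in these windows.

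Other short motifs were spread unevenly over the 8 windows. The CCAAT box, the recognition sequence of the factor NF-Y, was in 4 of the 8 windows (Got1, Cbs, Glul and Pycr1), against 37.4% of all windows. Got1 held 6 of them, 1 of them after the start. The GC box (GGGCGG), bound by SP1, was in 6 of 8 windows, all but Got1 and Got2, against 35.7% of all windows. Before the start alone, it was in 46.2% of windows of rows called higher and 39.4% of those called lower, beside 32.7% of all windows. The share of G and C before the start ran from 53.6% in Pycr1 to 68% in Cbs, beside a median of 52.4% over all windows. All 8 windows were above that median, with Pycr1 and Got1 (54.4%) close to it. The TATA box (TATAAA) was in 1 window, that of Got2, at bases -142 to -137 on the other strand, against 13.6%. The antioxidant response element (TGACNNNGC) was in the Asns window alone, at bases -172 to -164 on the other strand, against 12.4%. The cAMP response element (TGACGTCA) was in none of the 8, against 1.79%. All motifs were searched on both strands. None of these matches shares a base with a TGATGNAA match, and a match is not a measured binding site.

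**Figure D1:**
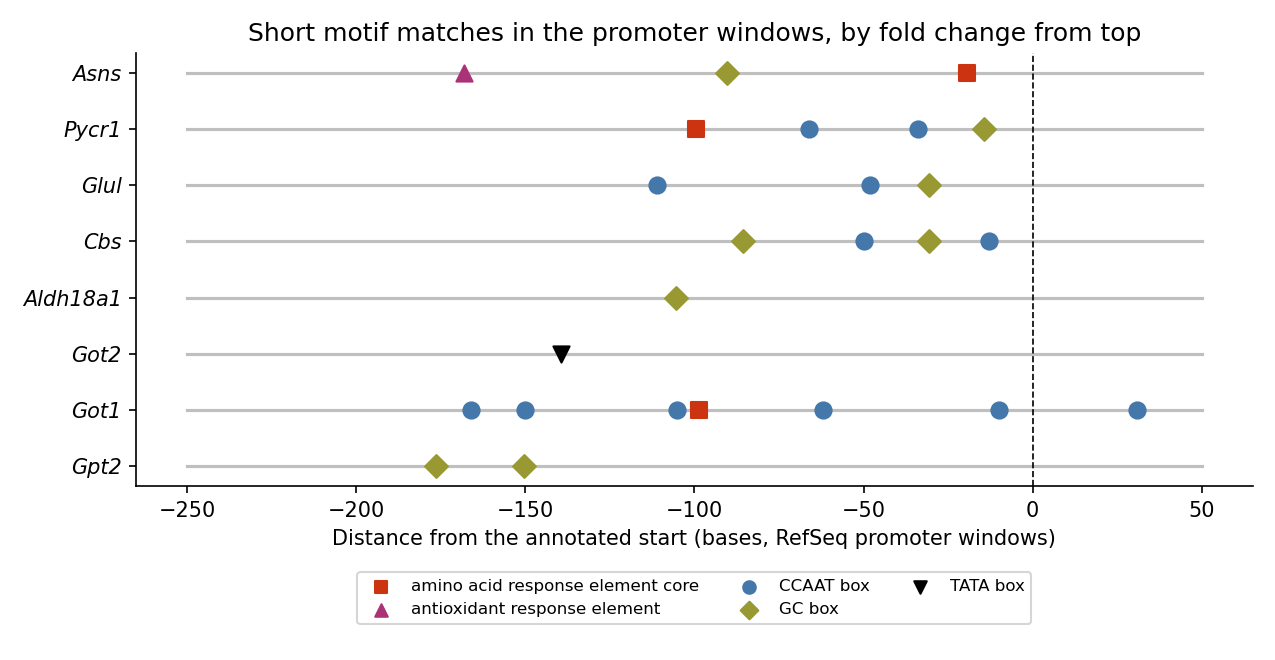
Matches to 5 short motifs in the promoter windows of 8 enzymes, plotted by distance from the annotated start (bases), with genes ordered by fold change from the top. The amino acid response element core is in Asns, Pycr1 and Got1 only, and lies nearest to the start, at bases -23 to -16, in Asns.

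All 9 enzymes were listed higher in mutant than in control ventricles, by 1.25-fold to 85.7-fold in the authors' deposited table. Of the 9, 5 rose at an adjusted p below 0.05 (Asns, Cth, Pycr1, Glul and Aldh18a1), none was lower, and the remaining 4 missed the threshold (Cbs, Got2, Got1 and Gpt2). The same 5 had an unadjusted p below 0.05, as had 12.6% of all tested rows and 17.0% of rows averaging 1 RPKM or more. A row with an adjusted p below 0.05 is referred to as called. Over all 24454 tested rows, 3.51% were called in either direction and 2.03% were called higher. Among the 11292 rows averaging 1 RPKM or more, 3.35% were called higher, and 4 of the 7 enzymes at that level were. The median log2 fold change of the 9 was 2.02, beside 0.07 over all tested rows. Nothing is read from these shares, since the same contrast was in view when the genes were chosen.

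The whole table bears on these values in a few ways. Hnrnpu was listed at 32.7 RPKM in controls and 15.2 RPKM in mutants, a log2 fold change of -1.10 with adjusted p = 0.438 in the authors' deposited table, so the targeted gene was lower but was not called. Cardiac muscle was plain in the data, with all 10 cardiomyocyte markers between 52.2 and 2380 RPKM in controls and between 16.3 and 4530 RPKM in mutants. These markers are mostly shared by atrial and ventricular muscle, and the dissection was not checked with them. In bulk tissue, fewer cells of a type and less RNA per cell cannot be told apart. Small RNA genes seen in 1 group alone gave the worth of 1 read, from which the read numbers below were estimated. These estimates assume that the common steps in those values are single reads, which were worth less RPKM in mutants than in controls, and use transcript lengths of a later annotation (GENCODE M21).

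**Figure D2:**
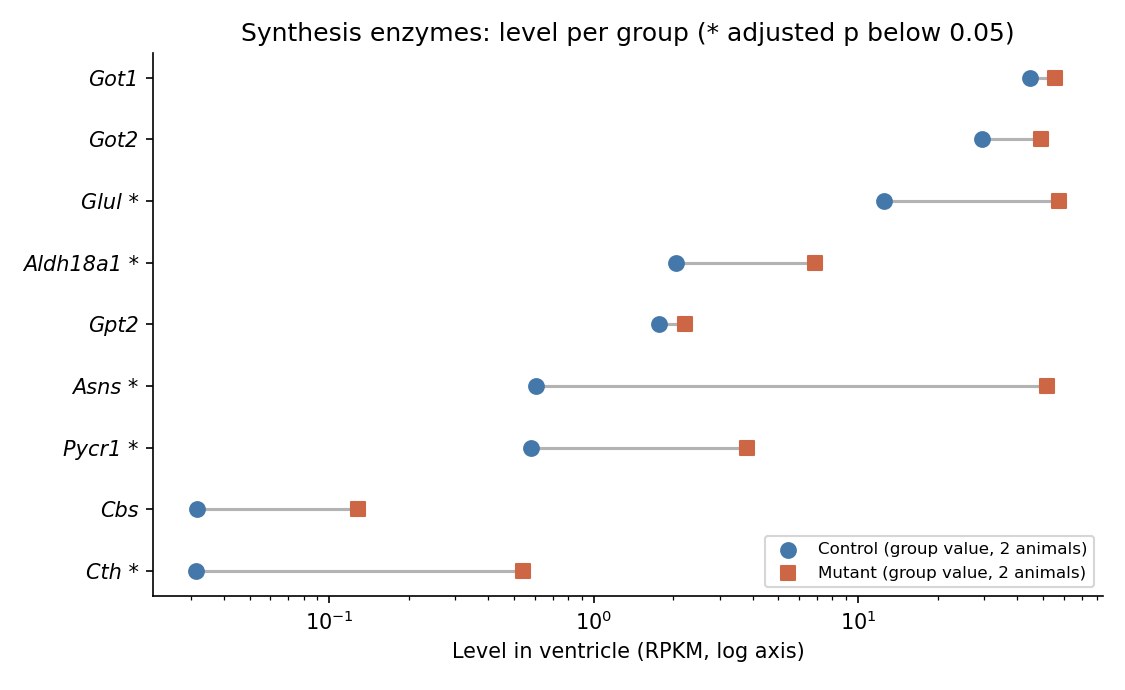
Level of each of the 9 enzymes in control (blue circles) and mutant (orange squares), as the authors' single RPKM value per group on a log axis, with genes ordered by control level and an asterisk for adjusted p below 0.05. Asns moves from 0.607 to 52.0 RPKM and joins Got1, Got2 and Glul, whereas Cth and Cbs stay below 1 RPKM in both groups.

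Levels ran over 3 orders of magnitude in controls. Got1 stood highest at 44.5 RPKM, followed by Got2 at 29.4 RPKM and Glul at 12.5 RPKM. Aldh18a1 and Gpt2 came next at 2.05 and 1.77 RPKM, then Asns and Pycr1 at 0.607 and 0.580 RPKM. Cbs and Cth closed the order at 0.0316 and 0.0315 RPKM. In mutant ventricles 4 enzymes lay close together, with Glul at 57.7 RPKM, Got1 at 55.7 RPKM, Asns at 52.0 RPKM and Got2 at 49.0 RPKM. Below them stood Aldh18a1 at 6.90 RPKM, Pycr1 at 3.79 RPKM, Gpt2 at 2.21 RPKM, Cth at 0.539 RPKM and Cbs at 0.128 RPKM. Asns thus went from rank 6 to rank 3 and Glul from rank 3 to rank 1.

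Asparagine is made by a single enzyme in mammals, asparagine synthetase, the product of Asns (chromosome 6, minus strand, 7625169 to 7643254, mm9). Its level was 0.607 RPKM in controls and 52.0 RPKM in mutants. Among 18268 protein coding genes seen in either group, this moved it from percentile 38.9 to percentile 98.2. In the authors' deposited table the change was 85.7-fold, a log2 fold change of 6.42 with p = 1.5e-23 and adjusted p = 1.23e-19. An approximate 95% interval, computed back from the deposited fold and p under a normal model, ran from 5.16 to 7.68. Behind the values stood an estimated 60 to 71 reads in controls and 11598 to 16029 in mutants. By fold change, Asns ranked 8 among the 11292 tested rows with a mean of at least 1 RPKM.

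The rows of mean at least 5 RPKM whose deposited log2 fold change lay nearest to that of Asns were Gm7901, Gdf15 and Nppa. Likeness here is the absolute difference in log2 fold change over the 2 group values, which was 0.04, 0.14 and 0.19. Gm7901, annotated as a pseudogene, was listed at 0.172 RPKM in controls and 15.1 RPKM in mutants. Its transcript matched that of Phgdh, the first enzyme of serine synthesis, at 98.7% identity over 1597 bases, so reads of both could not be told apart where they do not differ. Phgdh itself was listed at 0.134 and 7.72 RPKM. Gdf15, a secreted stress cytokine, was listed at 0.295 and 22.8 RPKM, and Nppa, the atrial natriuretic peptide gene, at 58.2 and 4370 RPKM.

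Enzymes that break down asparagine stood far below its synthetase in mutant ventricles. Asrgl1, which has asparaginase activity, was listed at 2.52 RPKM in controls and 3.56 RPKM in mutants (adjusted p = 0.883 in the authors' deposited table). The asparaginase Aspg was listed at 0.195 RPKM in controls and 0.930 RPKM in mutants (adjusted p = 0.0642 in the authors' deposited table). Of the summed level of Asns, Asrgl1 and Aspg, Asns made up 18.3% in controls and 92.1% in mutants. Nars, which charges the asparagine transfer RNA, was listed at 15.7 and 50.7 RPKM, a 3.23-fold difference with adjusted p = 0.0557 in the authors' deposited table, just outside the threshold. The ratio of Asns to Nars went from 0.0387 to 1.03.

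Aspartate, the substrate of asparagine synthetase, comes from the aminotransferases Got1 in the cytosol and Got2 in mitochondria, which also run the malate-aspartate shuttle. Got1 (chromosome 19, 43574242 to 43599095, mm9) was listed at 44.5 RPKM in controls and 55.7 RPKM in mutants. The authors' deposited table gives it 1.25-fold with p = 0.591 and adjusted p = 1, and the approximate 95% interval of the log2 fold change ran from -0.86 to 1.51. Got2 (chromosome 8, 98388034 to 98412447) was listed at 29.4 and 49.0 RPKM, 1.67-fold with p = 0.185 and adjusted p = 0.707 in the authors' deposited table, with an interval from -0.35 to 1.83. Both intervals span 0 and are wide, so the missing calls do not show equal levels.

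Got2 has near-identical copies whose own rows were called. Got2-ps1, a processed pseudogene on chromosome 5, matched the Got2 transcript at 99.1% identity over 1293 bases. It was listed at 16.3 RPKM in controls and 63.5 RPKM in mutants, 3.90-fold with adjusted p = 0.00871 in the authors' deposited table. Gm10874 overlaps it on the other strand, matched Got2 at 98.8% over 1637 bases, and was listed at 9.14 and 34.2 RPKM (3.75-fold, adjusted p = 0.012 in the authors' deposited table). How reads that fit several places were handled is not given in the sources used here, so the split of reads between Got2 and these rows is uncertain. If the reads of Got2-ps1 are added to Got2 by length, the level becomes 37.7 RPKM in controls and 81.5 RPKM in mutants, 2.16-fold, with 22.1% and 39.8% of the reads from the copy. No test could be run on that sum.

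No further listed gene of the shuttle or of aspartate use was called. The malate dehydrogenases Mdh1 and Mdh2 were the most abundant of these genes, at 210 and 156 RPKM in controls and 277 and 160 RPKM in mutants. Of 20 further genes of asparagine and aspartate metabolism, none was called in the authors' deposited table. An unadjusted p below 0.05 was held by 3 of the 20. That share is close to the 12.6% of all tested rows and the 17.0% of rows averaging 1 RPKM or more. The median log2 fold change of the 20 genes was 0.38, with 15 above control and 5 below.

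**Figure D3:**
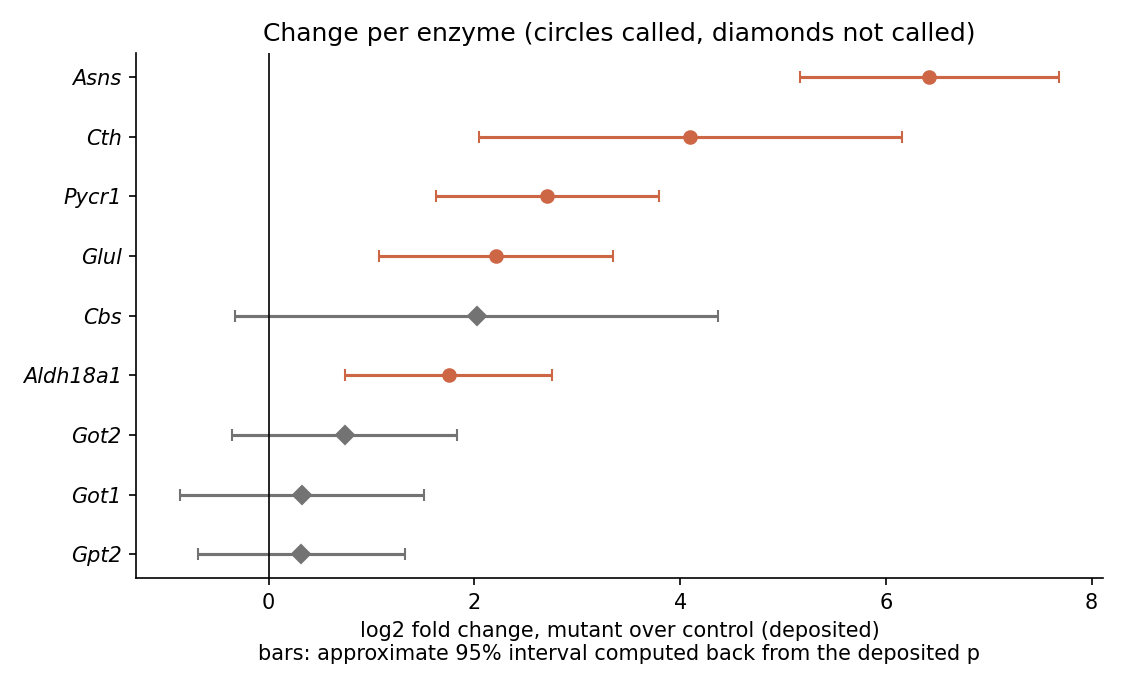
Deposited log2 fold change of mutant over control for each enzyme, with bars for the approximate 95% interval computed back from the deposited p, circles for called genes and diamonds for the others. The intervals of Cth, Pycr1, Glul and Aldh18a1 lie above 0 as does that of Asns, from 5.16 to 7.68, while those of Cbs, Got2, Got1 and Gpt2 cross 0.

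Glutamine donates the amide group that Asns uses, and Glul codes for glutamine synthetase (chromosome 1, plus strand, 155747074 to 155756853, mm9). Glul was listed at 12.5 RPKM in controls and 57.7 RPKM in mutants. The authors' deposited table gives 4.62-fold, a log2 fold change of 2.21 with p = 0.000135 and adjusted p = 0.00743, and the approximate 95% interval ran from 1.08 to 3.34. Glul gained 45.2 RPKM, an increase close to the 51.4 RPKM gained by Asns although its fold change was far smaller. An estimated 1738 to 2039 control reads and 17957 to 24632 mutant reads stood behind it.

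Several rows share sequence or position with Glul, and 2 of them were called higher. Glns-ps1, a processed pseudogene on chromosome 11 with 96.8% identity to Glul over 1126 bases, was listed at 3.23 RPKM in controls and 29.9 RPKM in mutants, 9.26-fold with adjusted p = 5.64e-07 in the authors' deposited table. 5830403L16Rik runs on the opposite strand and shares 265 bases with the first part of the Glul locus. It was listed at 0.206 and 2.47 RPKM (12.0-fold, adjusted p = 4.21e-05 in the authors' deposited table). Gm10947 on the same strand shares 4423 bases with Glul and was listed at 0.392 and 1.56 RPKM (adjusted p = 0.395 in the authors' deposited table), and Gm11074 on the opposite strand was at 0 in both groups. Reads of these rows cannot be told apart from those of Glul where they overlap or are identical, and the use of strand is not given in the sources used here.

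None of the listed genes of glutamine and glutamate use, from which Asns was left out, was called. Of the 16 tested, 3 had an unadjusted p below 0.05. Among these, Ctps, a CTP synthase, was listed at 5.54 and 11.9 RPKM, and Pfas, an enzyme of purine synthesis, at 4.05 and 1.88 RPKM (adjusted p = 0.281 and 0.286 in the authors' deposited table). Glud1, glutamate dehydrogenase, was listed at 11.5 and 13.8 RPKM. The median of this list was -0.28, with 5 genes above control and 11 below.

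Proline synthesis from glutamate takes Aldh18a1, which makes pyrroline-5-carboxylate, and then a reductase such as Pycr1, both in mitochondria. Pycr1 (chromosome 11, 120497026 to 120505083, mm9) rose from 0.580 to 3.79 RPKM. This was 6.54-fold in the authors' deposited table, a log2 fold change of 2.71 with adjusted p = 0.000137, and the approximate 95% interval ran from 1.62 to 3.80. Aldh18a1 (chromosome 19, 40624747 to 40662953) rose from 2.05 RPKM to 6.90 RPKM, 3.37-fold with adjusted p = 0.0246 and a log2 fold change of 1.75 in the authors' deposited table. Its interval, computed in the same way, ran from 0.74 to 2.76. Of the 5 called enzymes it had the smallest change and the largest adjusted p. The smallest rise that was called among rows within 2-fold of its mean level was 3.03-fold, so Aldh18a1 lay close to the smallest rise called at its level.

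The cytosolic reductase Pycrl was listed at 6.37 RPKM in controls and 5.46 RPKM in mutants (adjusted p = 1 in the authors' deposited table). Proline breakdown runs through Prodh and Aldh4a1. Prodh was listed at 2.20 RPKM in controls and 3.52 RPKM in mutants, and Aldh4a1 at 1.79 and 3.02 RPKM (adjusted p = 0.718 and 0.648 in the authors' deposited table). The ratio of Pycr1 to Prodh went from 0.264 to 1.08. Of 14 tested genes around proline and ornithine, none was called and 3 had an unadjusted p below 0.05. Odc1, which makes putrescine from ornithine, was listed at 1.21 and 3.72 RPKM (adjusted p = 0.0803 in the authors' deposited table), and P4ha1, a collagen prolyl hydroxylase subunit, at 4.68 and 10.2 RPKM. Oat, which links ornithine to pyrroline-5-carboxylate, was listed at 23.9 and 34.5 RPKM, and Eprs, which charges glutamate and proline transfer RNAs, at 9.49 and 15.9 RPKM. These 14 genes had a median log2 fold change of 0.62.

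**Figure D4:**
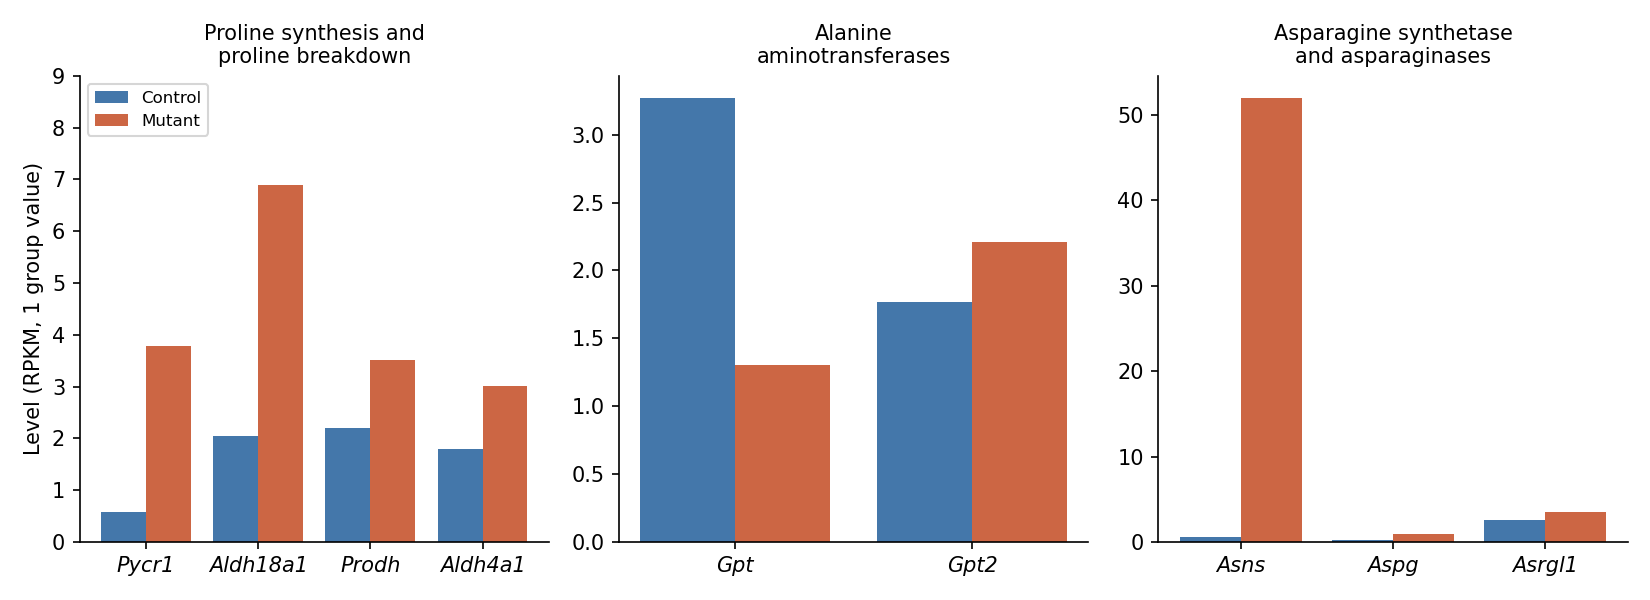
Levels (RPKM, the authors' single value per group, no spread) of enzymes of the same or the opposing step, in control (blue) and mutant (orange), each panel on its own linear axis from 0. Pycr1, Aldh18a1 and Asns were called higher in mutants and the other enzymes drawn were not, and the order of Gpt and Gpt2 is exchanged between the groups.

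Alanine is formed from pyruvate by alanine aminotransferases, of which Gpt2 codes for the mitochondrial and Gpt for the cytosolic form. Gpt2 (chromosome 8, 88016475 to 88051459, mm9) was listed at 1.77 RPKM in controls and 2.21 RPKM in mutants. The authors' deposited table gives 1.25-fold with p = 0.534 and adjusted p = 1, and the approximate 95% interval of the log2 fold change ran from -0.68 to 1.32. Gpt was listed at 3.27 RPKM in controls and 1.30 RPKM in mutants, 0.398-fold with p = 0.0238 and adjusted p = 0.265 in the authors' deposited table. Gpt2 made up 35.1% of the summed alanine aminotransferase level in controls and 63.0% in mutants, while the sum went from 5.04 to 3.51 RPKM. Neither gene was called, and the difference between their changes was not tested.

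Among 11 tested genes of this and other aminotransferases, 2 were called higher and none lower, with 8 above control and 3 below. Over all tested rows 2.03% were called higher. Psat1, the aminotransferase of serine synthesis, rose from 0.971 to 23.2 RPKM (adjusted p = 1.72e-12 in the authors' deposited table). Bcat1, the cytosolic branched-chain aminotransferase, rose from 0.143 to 0.706 RPKM, 4.94-fold with adjusted p = 0.00837 in the authors' deposited table. These 11 had a median log2 fold change of 0.90, and 4 genes had an unadjusted p below 0.05. Folds of the named aminotransferases thus ran from 0.398 for Gpt through 1.25 for Got1 and Gpt2 to 23.9 for Psat1.

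Cysteine is made from homocysteine by transsulfuration, in which Cbs forms cystathionine and Cth cleaves it. Both genes are mainly known from liver and were barely expressed in the ventricle. Cth (chromosome 3, 157557212 to 157588041, mm9) was listed at 0.0315 RPKM in controls and 0.539 RPKM in mutants. It was called higher, at 17.1-fold, with a log2 fold change of 4.10 and adjusted p = 0.00573 in the authors' deposited table, and the approximate 95% interval was wide, from 2.04 to 6.16. The control value stood for about 3 reads and the mutant value for 109 to 150, and a ratio with 3 control reads has a 95% counting interval from 5.72-fold to 84.0-fold. Cth went from percentile 17.5 in controls to percentile 38.1 in mutants among protein coding genes.

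Cbs (chromosome 17, 31749568 to 31774144, mm9) was listed at 0.0316 RPKM in controls and 0.128 RPKM in mutants. The authors' deposited table gives 4.07-fold with p = 0.0912 and adjusted p = 0.524, and the approximate 95% interval of the log2 fold change ran from -0.32 to 4.36. An estimated 4 to 11 control reads stood behind it, and among rows within 2-fold of its mean level the smallest called rise was 8.82-fold. That is the smallest of 18 called rises among 3235 rows and not a limit of detection. Hepatocyte markers were near 0 in both groups: of Alb, Ttr, Apoa1, Fgb and Serpina1a, none exceeded 0.0989 RPKM in controls or 0.0622 RPKM in mutants, 1 of 5 was above control, and their summed level was 0.181 RPKM in controls, with Apoa1 at 0 in controls and Fgb at 0 in mutants.

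Among 24 tested genes of methionine metabolism and cysteine use, 2 were called higher and none lower, beside 2.03% called higher of all tested rows. Of the 24, 4 had an unadjusted p below 0.05, beside 12.6% of all tested rows and 17.0% of rows averaging 1 RPKM or more. Slc7a11, which imports cystine, rose from 0.0112 to 0.139 RPKM (12.4-fold, adjusted p = 0.00667 in the authors' deposited table). Its control level was below the 0.0315 RPKM of Cth, and its read numbers were not estimated, so the size of this fold is uncertain. Chac1, which degrades glutathione, rose from 1.28 to 19.2 RPKM (14.9-fold, adjusted p = 9.05e-10 in the authors' deposited table). Tst, a sulfur transferase, was listed at 3.09 and 9.33 RPKM with adjusted p = 0.0819, and Mtr, methionine synthase, at 2.47 and 1.01 RPKM with adjusted p = 0.247, both in the authors' deposited table. Mat2a and Ahcyl1, the most abundant of this list, were listed at 23.0 and 9.55 RPKM in controls and at 21.2 and 11.3 RPKM in mutants. The median of the list was 0.37, with 21 genes above control and 3 below.

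**Figure D5:**
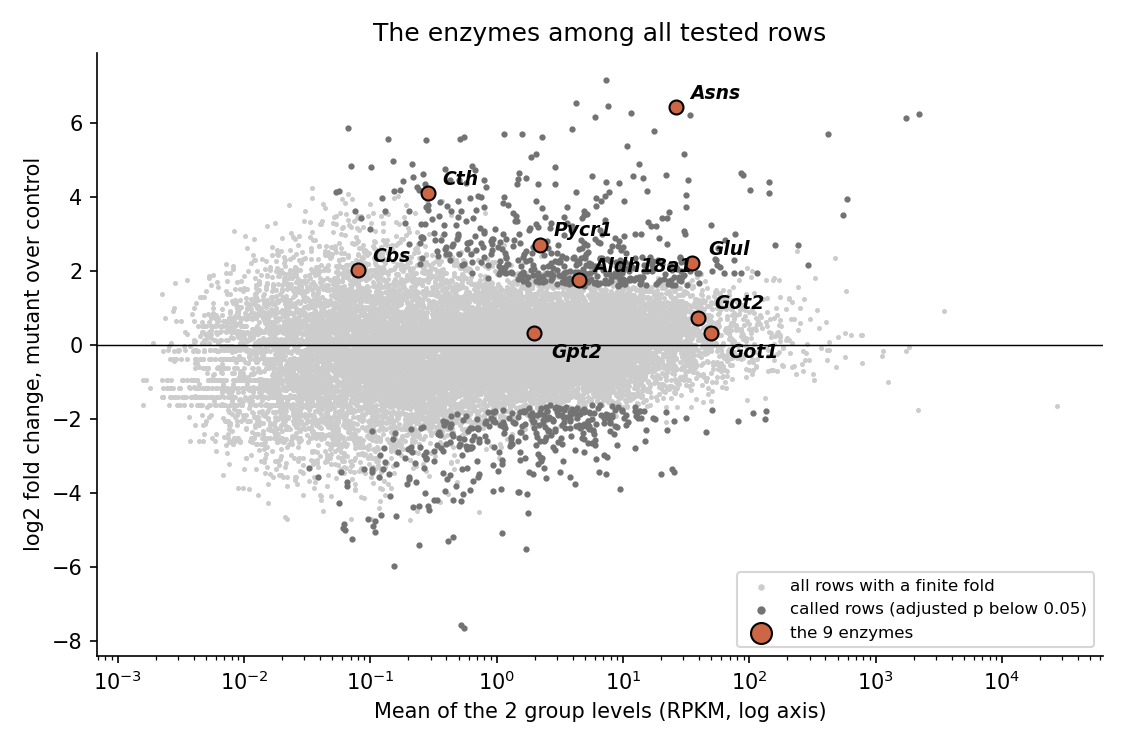
Deposited log2 fold change against the mean of both group levels (RPKM, log axis) for all tested rows with a finite fold (light grey), called rows (dark grey) and the 9 enzymes (orange). Asns lies among the highest folds, Cth and Cbs at low levels where the scatter is wide, and Got1, Got2 and Gpt2 within the body of uncalled rows.

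Over all 5 pathway lists, without the 9 enzymes, 84 genes were tested, of which 4 were called higher and none lower. Over all tested rows 2.03% were called higher. At a mean of 1 RPKM or more stood 58 of the 84. Of these 58, 2 were called higher, beside 3.35% of all tested rows at that level. An unadjusted p below 0.05 was held by 17 of the 84, beside 12.6% of all tested rows and 17.0% of rows averaging 1 RPKM or more. Of the 84, 58 were above control and 26 below, and the median log2 fold change was 0.36. At adjusted p thresholds of 0.01 and 0.1, 4 and 5 of the 9 enzymes were called higher, beside 1.25% and 2.78% of all tested rows. When the p-values were adjusted over rows averaging 1 RPKM or more, 4 of the enzymes were called higher, beside 3.95% of those rows. Aldh18a1 was the enzyme lost at the strict threshold, and Cth was the enzyme left out by the level filter.

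Atf4 and its partners were read as context for the element shown above. In the authors' deposited table Atf4 rose from 25.7 to 125 RPKM (adjusted p = 0.00562) and Atf5 from 9.14 to 47.6 RPKM (adjusted p = 0.000858). Trib3 rose from 0.745 to 11.6 RPKM (adjusted p = 1.41e-09 in the authors' deposited table). These were the 3 called genes of 12, beside 2.03% called higher of all tested rows. The remaining 9, among them the eIF2 kinases, Cebpb, Cebpg, Ddit3 and Atf3, were not called in the authors' deposited table. Of the 12, 8 were above control and 4 below, with a median log2 fold change of 0.36. Those below were Eif2ak2, at 2.47 RPKM in controls and 1.34 RPKM in mutants, Eif2ak4 at 2.02 and 1.19 RPKM, Ddit3 at 4.46 and 4.08 RPKM, and Atf3 at 4.46 and 4.32 RPKM.

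Markers of other cell types were read beside these enzymes. All 6 tested macrophage markers were above control, with none called, 2 at an unadjusted p below 0.05 and a summed level of 47.4 RPKM in controls and 107 RPKM in mutants. The 6 fibroblast markers summed to 505 and 625 RPKM with 4 above control, a median log2 fold change of 0.997 and 2 at an unadjusted p below 0.05. These 2 were Tcf21, at 8.47 and 24.0 RPKM, and Pdgfra, at 5.32 and 11.6 RPKM, while Dcn, the most abundant of the 6, was at 278 and 250 RPKM. The 6 endothelial markers summed to 117 and 102 RPKM with 1 above control and none at an unadjusted p below 0.05. The 5 mural markers summed to 125 and 97.0 RPKM with 3 above control, and 1, Abcc9 at 19.2 and 7.46 RPKM, had an unadjusted p below 0.05. Of 5 neural and glial markers 4 were above control, and their sum was 2.65 and 3.27 RPKM. The 10 cardiomyocyte markers summed to 11859 and 12021 RPKM, with 9 of the 10 below control. Actc1 alone was above it, at 2380 and 4530 RPKM, and the other 9 summed to 9479 and 7491 RPKM. Ryr2, at 52.2 and 16.3 RPKM, was the 1 marker of these with an unadjusted p below 0.05. The part of these cell types in the enzyme levels was not tested.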

How the data were processed

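Per the file headers, the deposited table holds the authors' RPKM as 1 value per group. It also holds the authors' fold (ratio of mutant over control), its log2 value, and a p-value and adjusted p-value per row. Bowtie 0.12.9, DESeq (version absent) and mm9 appear in the submitters' processing notes, without the step each served. Annotation, read counter, strand and the handling of multi-mapping reads: not given in the sources used here. The authors' depth per library is not given there either. Of 36814 rows, 24454 carried a test across all genes. The adjusted p-values were used as deposited.

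The 9 members, the lists and the alternatives were chosen with earlier results of these data known. All 9 were named. From each pathway list, called genes, the 2 most abundant and others of mean at least 1 RPKM with an unadjusted p below 0.05 were named. Sets of isoenzymes and of opposing enzymes, the marker genes named and GTTACA were chosen after their values were seen. With 1 value per group, the design's models on counts could not be fitted.

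Intervals were computed back from fold and p (Python 3.11.15, SciPy 1.17.1). The 2 commonest steps among small RNA genes, taken as 1 read, were 0.0201 and 0.0171 RPKM times kilobase in controls and 0.00897 and 0.00654 in mutants. The read estimates and the counting interval of Cth cover counting error only. Near-identical copies (at least 90% over 500 bases) were sought with blastn 2.17.0 among GENCODE M21 transcripts. Genes lie on mm9 and promoters on GRCm38.p6, and no coordinate was converted. The interval, adjustment and motif steps were run on simulated normal folds and planted motifs, which checks their arithmetic only. Whether the intervals hold for read counts of 2 against 2 animals was not tested.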

Additional observations from a re-analysis of the deposited data

How the results depend on the processing

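No paired analysis was possible because the table holds 1 value per group, and for the same reason no replicate could be left out. Each member has 1 row, so no other row of its symbol could be tried. A count was taken as moved beyond 1.5 times, a fold beyond the standard error computed back from its p, and a promoter share outside its 95% binomial interval, which is narrow over 32851 windows. By these limits 14 recomputed values moved and 36 did not. The direction of a called fold was not put to a test. A pseudocount added to both groups cannot reverse a rise, and the median shift was smaller than every called fold. That shift was also below every standard error used as a limit. Some values thus could not move, and the tally is no measure of robustness. With a pseudocount of 0.1 RPKM the log2 fold change was 2.28 for Cth and 0.79 for Cbs. With a pseudocount of 1 RPKM it was 5.04 for Asns, 1.60 for Pycr1, 0.58 for Cth and 0.13 for Cbs. Relative to the median of rows at 1 RPKM or more in both groups, 0.09, each fold moved by that shift alone. Adding the reads of Got2-ps1, an alternative chosen after seeing the data, gave Got2 a log2 fold change of 1.11. Of the pathway genes, 4 were called higher as reported, 8 at an adjusted p below 0.1 and 2 among the 58 of mean at least 1 RPKM. The shares of all rows so treated were 2.03%, 2.78% and 3.35%, in the same order. Counting motifs before the start alone lowered the share of all promoters to 3.45% for TGATGNAA, 10.2% for the antioxidant element, 1.55% for the cAMP element, 33.8% for the CCAAT box, 12.4% for the TATA box and 32.7% for the GC box, since the window is shorter. Estimated reads were fewest for Cth and Cbs.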
